A study of Homo sapiens with 12 samples.

Results

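The 5 mature microRNAs (miRNAs) miR-191-5p, miR-425-5p, miR-423-5p, miR-423-3p and miR-186-5p and the 3 genes whose introns hold their hairpins were measured after siRNA against ERI2 in HEK293T cells. The host genes are DALRD3, which holds MIR191 and MIR425, NSRP1, which holds MIR423, and ZRANB2, which holds MIR186. The members were taken by name, 5 of the 2588 miRNA names in the miRNA-seq table and 3 of the 55765 gene names in the RNA-seq table. All 8 passed the filter on low counts, as did 1316 miRNA names and 18843 genes in all. HEK293T cells derive from human embryonic kidney and express the large T antigen of a virus. An siRNA is a short double-stranded RNA that directs the cleavage of a matching mRNA, and ERI2 belongs to the ERI family of exonucleases. In the first group HEK293T cells received ERI2 siRNA, in the second a control siRNA, with 3 libraries per group in each assay, 12 in all. Both groups received 50 nM siRNA, a second transfection 48 h after the first, and were harvested 72 h after the second. No genotype other than the cell line's is given. In the growth protocol the cells are called HEK293, the parental line, and the treatment protocol also lists an siRNA against the related ERI1. Nothing in the labels ties the replicates to separate cultures. The p-values therefore measure only the spread among the libraries, part of which may be technical. The labels list 1 ERI2 siRNA treatment, so an effect of that siRNA on other transcripts and an effect of less ERI2 cannot be told apart.

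A miRNA inside an intron on the same strand is often transcribed with its host, although some intronic miRNAs have promoters of their own. The microprocessor (DROSHA with DGCR8) cuts the hairpin out of the primary transcript, exportin 5 carries it to the cytoplasm, and DICER1 releases a duplex whose 5p or 3p strand is loaded into an Argonaute protein. The loaded strand pairs with target mRNAs mainly through its seed, bases 2 to 8. Where host and miRNA share a transcript they share its promoter, while maturation, loading and decay act on the miRNA alone. miR-191 and miR-425 come from neighbouring hairpins of a single host. miR-423 is one of the hairpins from which both strands are commonly found. MIR3184 is annotated on the opposite strand of MIR423.

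The RefSeq miRNA table (GRCh38.p14) held a mature sequence for 3 of the 5 miRNAs. These 3 are shown, with the seed in capitals, because their arms or names are compared in the results. The miR-191-5p sequence lies at chr3:49020672-49020694 on the minus strand, miR-423-5p at chr17:30117095-30117117 and miR-423-3p at chr17:30117131-30117153, both on the plus strand.
hsa-miR-191-5p: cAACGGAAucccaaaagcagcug
hsa-miR-423-5p: uGAGGGGCagagagcgagacuuu
hsa-miR-423-3p: aGCUCGGUcugaggccccucagu
The names of the opposite strand at the MIR423 locus are shown beside them, since their reads could be mistaken for those of miR-423. miR-3184-5p lies at chr17:30117128-30117151 and miR-3184-3p at chr17:30117095-30117117, both on the minus strand.
hsa-miR-3184-5p: uGAGGGGCcucagaccgagcuuuu
hsa-miR-3184-3p: aAAGUCUCgcucucugccccuca
miR-3184-3p is the exact reverse complement of the 23 bases of miR-423-5p. miR-423-3p and miR-3184-5p share 21 bases on opposite strands. The seed of miR-423-5p is also that of miR-3184-5p, and no other mature name in the count table with a RefSeq sequence carried it. The seeds of miR-191-5p and miR-423-3p were shared with 0 other names of the count table among those with a RefSeq sequence.
The hairpins of MIR191 (chr3:49020618-49020709, minus strand) and MIR423 (chr17:30117079-30117172, plus strand) are given with both mature arms in capitals, to show which strands the arm shares compare.
MIR191: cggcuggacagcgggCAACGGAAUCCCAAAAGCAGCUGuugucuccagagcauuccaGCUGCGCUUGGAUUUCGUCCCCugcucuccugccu
MIR423: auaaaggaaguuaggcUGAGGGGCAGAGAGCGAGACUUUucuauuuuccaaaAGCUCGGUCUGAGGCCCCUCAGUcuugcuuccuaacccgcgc

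In units of 1e+06 counts, the miRNA-seq libraries held from 0.742 to 1.03 with ERI2 siRNA and from 0.723 to 0.808 with control siRNA. The RNA-seq libraries held from 29.1 to 32.6 with ERI2 siRNA and from 30.1 to 38.3 with control siRNA. The target of the siRNA, ERI2 mRNA, stood at 34.6, 35.8 and 32.5 CPM (counts per 1e+06 counts) with ERI2 siRNA and at 54.4, 58.2 and 54.4 CPM with control siRNA, 61.5% of the control mean. Levels are CPM on library sizes scaled by TMM, a method that assumes most names do not change, unless total counts are named. In miRNA-seq the TMM factors lay between 1.45 and 1.63 with ERI2 siRNA and between 0.639 and 0.677 with control siRNA. The choice of scaling therefore moved every miRNA: with total library sizes the median log2 fold change of all tested names was 1.27, against 0.054 with TMM, a shift of 1.22. In RNA-seq the shift was 0.057. Both scalings are given for the miRNAs, and differences from the median of all names hardly depend on this choice. No pair of replicates matched within counting noise, as the chi-square divided by its degrees of freedom was 2.07 or more in every pair. In RNA-seq this value was 14.7 and 15.98 between the first ERI2 siRNA library and the other ERI2 siRNA libraries, which lay closer to each other, and 23.4 and 25.2 between the first control library and the other controls, against 14.2 between those. In miRNA-seq it was 18.2 and 9.83 between the first ERI2 siRNA library and the others, against 5.99 between those, and at most 3.10 among controls. Host values are therefore also given without the replicate 1 libraries, and the sensitivity to them of the miRNA values is given with the other alternatives. Of 9 tested HEK293 line markers 2, NEFL and INA, were lower with ERI2 siRNA, where 4.25% of all tested genes were called lower. The listed HEK293 line markers, tested or not, were also summed on total library sizes. Their sums were 166 to 180 CPM with ERI2 siRNA and 187 to 199 CPM with control siRNA. Of 12 markers of blood, fibroblasts and epithelium, 7 (PTPRC, LYZ, HBG1, COL1A2, DCN, KRT5 and KRT14) were too low to test. On total library sizes the markers of these cells, tested or not, summed to 16.8 to 22.3 CPM with ERI2 siRNA. With control siRNA they summed to 20.1 to 24.5 CPM. Of the 5 tested ones 3 (COL3A1, EPCAM and CDH1) were lower, beside the same 4.25% of all tested genes. EPCAM was near the floor, at 0.749 CPM with ERI2 siRNA and 1.54 CPM with control siRNA. The 2 that were not called, COL1A1 (log2 fold change 0.31) and CD14 (0.59), went the other way. The part of these markers in the results was not tested. In bulk RNA, fewer cells of a type and less RNA per cell cannot be told apart.

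All 5 miRNAs were lower with ERI2 siRNA, to between 15.7% and 31.3% of their control level, while edgeR's quasi-likelihood test called 0 of the 3 host genes, where 8.54% of all tested genes were called in either direction, 4.25% lower and 4.29% higher. NSRP1 alone reached an unadjusted p under 0.05, and DESeq2 called it (1 of 3) while limma-voom called 0. The fall was largest for miR-186-5p, followed by miR-191-5p, miR-423-5p, miR-423-3p and miR-425-5p. Neighbours in this order had overlapping 95% intervals of the log2 fold change, while those of miR-186-5p and miR-191-5p did not overlap those of miR-423-3p and miR-425-5p. These differences between members were not tested. Among all tested miRNA names 23% were called lower, 11.1% higher and 34.1% in either direction (edgeR's quasi-likelihood test, Benjamini-Hochberg adjusted p under 0.05). Among the names of at least 100 CPM on average over the 6 libraries, as all 5 are, 38.1% were called lower. In all 5 the groups did not overlap, with ERI2 siRNA lower, as in 26% of all tested names. With total library sizes all 5 again passed as lower, where 13.6% of all names were called lower and 78.3% higher, so the balance of directions over all names turned with the scaling.

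**Figure D1:**
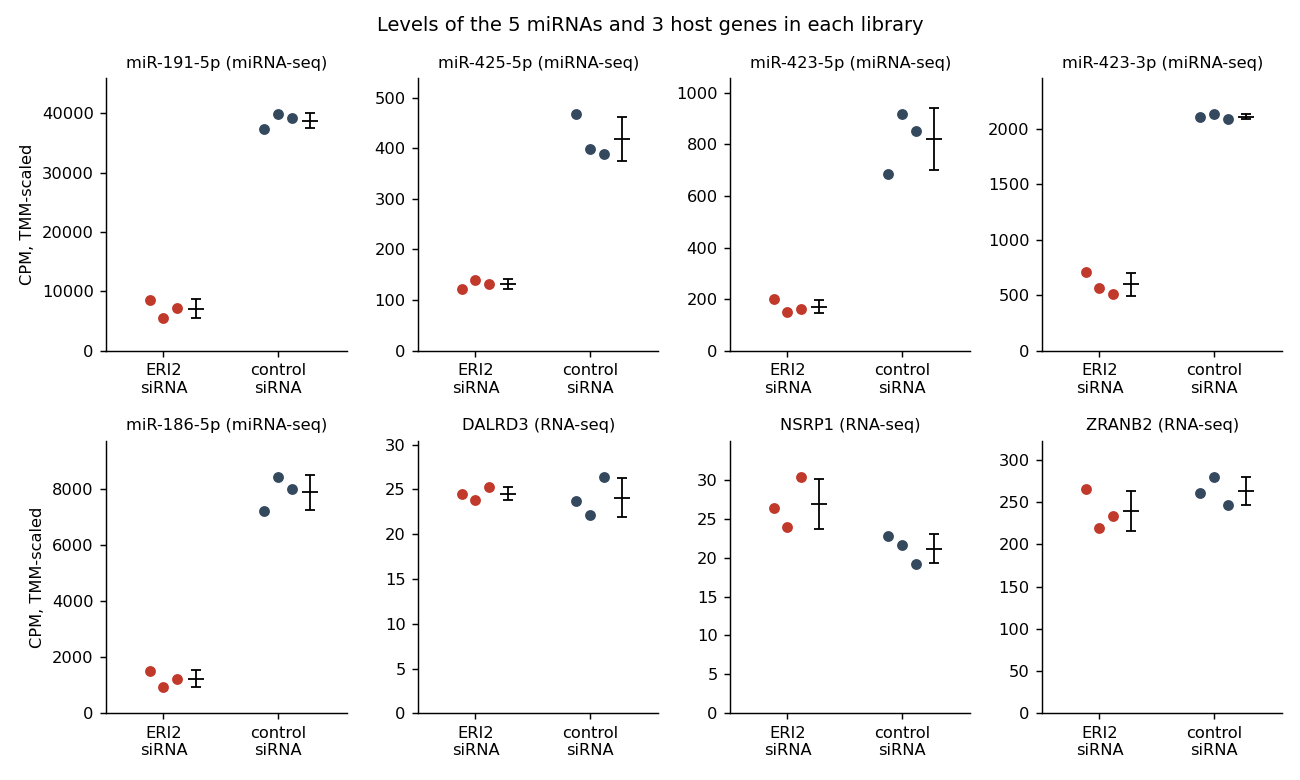
Levels of the 5 miRNAs (miRNA-seq) and 3 host genes (RNA-seq) in each library, as TMM-scaled CPM on axes that start at 0. Red points are the 3 ERI2 siRNA libraries, dark points the 3 control siRNA libraries, and the black bars the mean ± SD. The miRNA groups stand far apart, at 7087 against 38784 CPM for miR-191-5p, while DALRD3 and ZRANB2 overlap between groups.

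miR-191-5p, one of the most abundant miRNAs of these cells and one often reported as higher in tumours, measured 8598, 5478 and 7184 CPM in ERI2 siRNA libraries and 37315, 39889 and 39147 CPM in control siRNA libraries. Every ERI2 siRNA library lay below every control library, with means of 7087 ± 1562 CPM with ERI2 siRNA and 38784 ± 1325 CPM with control siRNA (SD, n = 3 each). It ranked 14 by level among the 2588 names with ERI2 siRNA and 6 with control siRNA. The log2 fold change was -2.45 (SE 0.156, 95% interval -2.79 to -2.11; edgeR's quasi-likelihood test, adjusted p = 2.09e-08). Counted as a share of the library with no scaling, it took 1.07% with ERI2 siRNA and 2.52% with control siRNA, and its log2 fold change was -1.24 (interval -1.48 to -0.99).

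miR-425-5p comes from the neighbouring hairpin in DALRD3 and is reported to act on the deubiquitinase CYLD. It measured 121, 140 and 132 CPM with ERI2 siRNA and 468, 398 and 389 CPM with control siRNA. The groups did not overlap, and the lowest control library lay far above the highest ERI2 siRNA library. The log2 fold change of -1.68 (SE 0.128, interval -1.95 to -1.40; edgeR's quasi-likelihood test, adjusted p = 9.08e-08) was the smallest of the 5. With total library sizes its level was 174, 228 and 198 CPM with ERI2 siRNA and 315, 253 and 250.3 CPM with control siRNA. On that scale the groups still did not overlap, with ERI2 siRNA lower as in 14.1% of all names, and the log2 fold change was -0.45 (interval -0.75 to -0.15; adjusted p = 0.00489).

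Since both hairpins sit in DALRD3, their ratio within a library compares 2 products of a single host and needs no scaling. There were 71.0, 39.0 and 54.6 counts of miR-191-5p per count of miR-425-5p with ERI2 siRNA, and 79.8, 100.3 and 100.5 with control siRNA. The ratio was lower in each ERI2 siRNA library than in any control library. Its log2 value averaged 5.74 ± 0.43 with ERI2 siRNA and 6.54 ± 0.19 with control siRNA (SD, n = 3), a difference of -0.80. An exact two-sided permutation test gave p = 0.1, the smallest that 3 libraries against 3 allow, so the design cannot place this difference under 0.05. Adjusted over the 5 ratios of this kind the p was also 0.1. The counts of a miRNA also depend on how well its ends are captured, so the ratio is no measure of molecules.

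miR-423-5p and miR-423-3p are the strands of a single hairpin in NSRP1, and the 3p strand was the more frequent in every library. miR-423-5p measured 200.1, 149.6 and 163 CPM with ERI2 siRNA and 686, 919 and 854 CPM with control siRNA. Its groups did not overlap, and its log2 fold change was -2.26 (SE 0.146, interval -2.57 to -1.94; edgeR's quasi-likelihood test, adjusted p = 2.32e-08). miR-423-3p, reported in other cells to act on the cell cycle inhibitor CDKN1A, measured 709, 568 and 514 CPM with ERI2 siRNA and 2101, 2132 and 2089 CPM with control siRNA. Its control libraries were close together (2107 ± 22.2 CPM, SD), and all ERI2 siRNA libraries lay below them (597 ± 101 CPM). The log2 fold change was -1.82 (SE 0.125, interval -2.09 to -1.55; edgeR's quasi-likelihood test, adjusted p = 3.41e-08). With total library sizes the log2 fold changes were -1.03 for miR-423-5p (adjusted p = 6.32e-09) and -0.60 for miR-423-3p (adjusted p = 3.24e-05).

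miR-186-5p, reported to act on kinases and anti-apoptotic genes such as ROCK1 and XIAP, measured 1530, 946 and 1242 CPM with ERI2 siRNA and 7204, 8443 and 8009 CPM with control siRNA. The highest ERI2 siRNA library lay far below the lowest control library. Its log2 fold change of -2.67 (SE 0.160, interval -3.01 to -2.32; edgeR's quasi-likelihood test, adjusted p = 1.38e-08) ranked 18 from the lowest among the 1316 tested names. By level it ranked 78 with ERI2 siRNA and 27 with control siRNA. With total library sizes it measured 2199, 1535 and 1870 CPM with ERI2 siRNA and 4859, 5379 and 5146 CPM with control siRNA, 36.4% of the control mean, for a log2 fold change of -1.45 (interval -1.70 to -1.20).

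Relative to the median of all tested names the 5 miRNAs stood at -2.51 (miR-191-5p), -1.73 (miR-425-5p), -2.31 (miR-423-5p), -1.87 (miR-423-3p) and -2.72 (miR-186-5p) on the log2 scale. Counted from the lowest of 1316 log2 fold changes, miR-191-5p ranked 65, miR-423-5p 115, miR-423-3p 169 and miR-425-5p 182. The plot of all names shows a band of names near 0 and a second band between about -2 and -3. Of the 16 names with a mean of at least 10000 CPM over the 6 libraries, miR-191-5p among them, 9 were called lower and 3 higher, with a median log2 fold change of -2.10. Of the 96 names between 1000 and 10000 CPM, which include miR-186-5p and miR-423-3p, 43 were lower and 21 higher, with a median of -0.045. Of the 329 names between 100 and 1000 CPM, which include miR-423-5p and miR-425-5p, 116 were lower and 70 higher, with a median of -0.015. These counts use TMM scaling and describe the names among which the members lie.

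**Figure D2:**
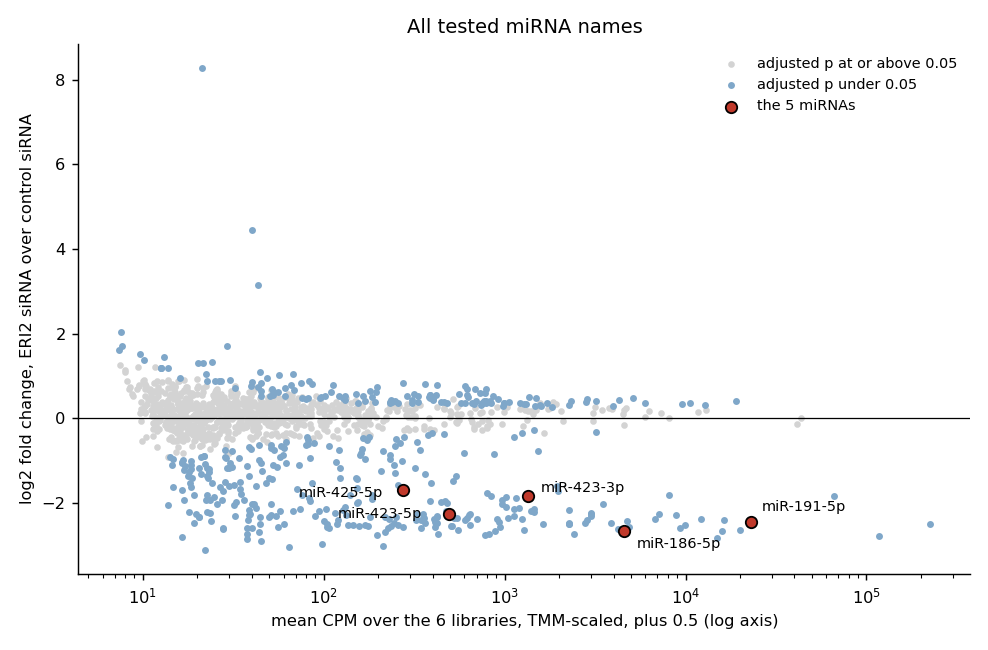
Log2 fold change (ERI2 siRNA over control siRNA) of the 1316 tested miRNA names against their mean level over the 6 libraries, plus 0.5 CPM, on a log axis. Red points mark the 5 miRNAs, from -1.68 (miR-425-5p) to -2.67 (miR-186-5p), blue points the other names past the test and grey points those that did not pass.

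The names whose levels over the 6 libraries ran closest to each member were found by the root mean square distance of centred log2 CPM, among 440 names of at least 100 CPM. miR-191-5p was nearest to miR-30b-5p (distance 0.0240) and miR-10a-5p (0.0251), against a median of 1.25 over all candidates. miR-186-5p was nearest to miR-4677-3p (0.0507) and miR-218-5p (0.0658). miR-423-5p was nearest to miR-378a-3p (0.0864) and miR-130b-3p (0.0965), and miR-423-3p to miR-4454 (0.0888) and miR-92a-3p (0.0902). miR-425-5p had the most distant neighbours of the 5, miR-3607-3p (0.129) and miR-500a-3p (0.185). Neither strand of miR-423 had the other among its 2 nearest names. Among 10314 genes of at least 10 CPM the nearest were CXorf23 and DPF3 to NSRP1, and NDUFB1 and CEP63 to ZRANB2. These distances describe the 6 libraries and carry no test.

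DALRD3, named for a domain that it shares with arginyl-tRNA synthetases, measured 24.4, 23.9 and 25.3 CPM with ERI2 siRNA and 23.7, 22.1 and 26.4 CPM with control siRNA. The groups overlapped fully, since the control libraries held both the lowest and the highest value. The log2 fold change was 0.029 (SE 0.0889, interval -0.16 to 0.22; edgeR's quasi-likelihood test, adjusted p = 0.870). This interval does not reach the log2 fold change of either of its miRNAs, and with total library sizes it ran from -0.11 to 0.28, above the interval of miR-425-5p on that scale. Without the replicate 1 libraries the log2 fold change was 0.017 (adjusted p = 0.923).

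NSRP1 encodes a nuclear speckle protein that takes part in splicing. It measured 26.3, 24.0 and 30.4 CPM with ERI2 siRNA and 22.8, 21.6 and 19.1 CPM with control siRNA, the only host whose groups did not overlap, as was the case for 29.7% of tested genes. The mean was 26.9 ± 3.24 CPM with ERI2 siRNA and 21.1 ± 1.84 CPM with control siRNA (SD, n = 3 each), 127% of control. The log2 fold change was 0.34 (SE 0.103, interval 0.12 to 0.56), and its adjusted p of 0.0525 in edgeR's quasi-likelihood test did not pass. It lay close to the threshold on the higher side. The adjusted p was 0.0452 with total library sizes, where 5.18% of all genes were called higher, 0.0284 in DESeq2 and 0.0114 without the replicate 1 libraries (log2 fold change 0.41), a fit in which 2622 genes were higher and 2670 lower. It was 0.0623 in limma-voom, 0.115 without control siRNA replicate 2, 0.213 without control siRNA replicate 3 and 0.246 without ERI2 siRNA replicate 3, none of which passed. The direction was opposite to that of both miR-423 strands, whose intervals lay below 0 on both scalings.

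ZRANB2, a zinc finger protein of the spliceosome, measured 266, 220 and 233 CPM with ERI2 siRNA and 261, 280 and 247 CPM with control siRNA. The groups overlapped, with the first ERI2 siRNA library above 2 of the 3 control libraries. Its mean was 91.2% of control and its log2 fold change -0.13 (SE 0.0853, interval -0.32 to 0.050; edgeR's quasi-likelihood test, adjusted p = 0.342). Without the replicate 1 libraries the log2 fold change was -0.22 and passed (adjusted p = 0.0251), where many more genes passed as well. The interval lay far above that of miR-186-5p, whose level was 15.7% of control.

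**Figure D3:**
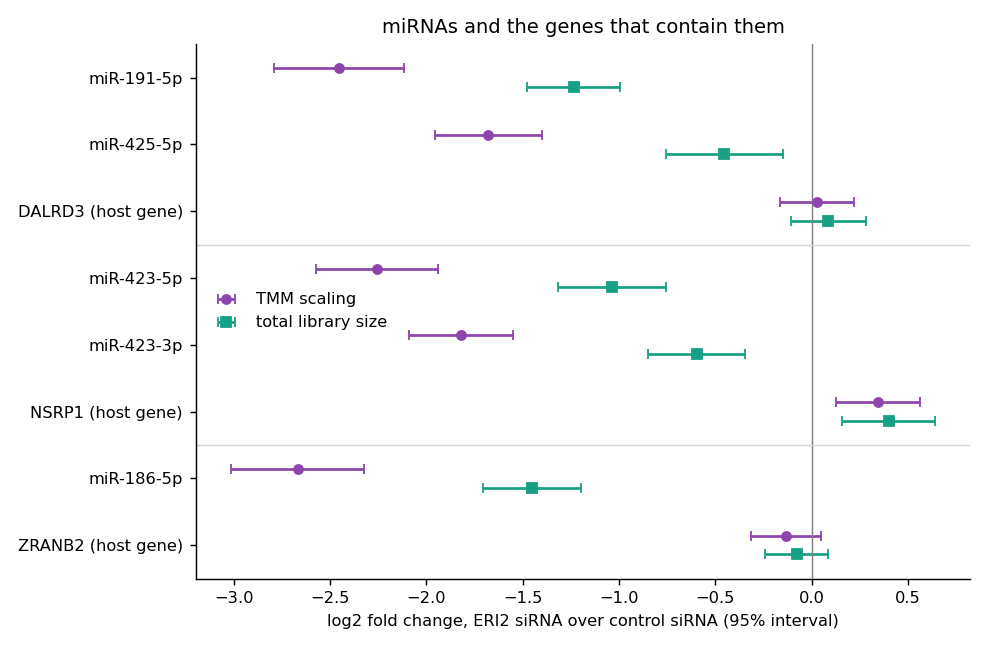
Log2 fold changes of the 5 miRNAs and their host genes, ERI2 siRNA over control siRNA, with 95% intervals. Circles use TMM scaling and squares total library sizes. Each miRNA lies below 0 on both scalings, and each host lies above its miRNAs, with NSRP1 at 0.34 and miR-423-5p at -2.26 under TMM.

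The host and the miRNA were measured in separate assays that were scaled separately, so the difference between them was not tested in a single model. The hairpin genes themselves gave few counts in RNA-seq. MIR191 had 6, 12 and 1 counts with ERI2 siRNA and 8, 12 and 2 with control siRNA. MIR425 had 5, 8 and 6 counts with ERI2 siRNA and 9, 7 and 11 with control siRNA, and neither was tested. MIR186 passed the filter with 10, 12 and 6 counts with ERI2 siRNA and 10, 17 and 7 with control siRNA, and its log2 fold change of -0.19 (interval -1.16 to 0.78) was not called. MIR423 and MIR3184 had 0 counts in each of the 6 libraries. With 0 counts no change of the MIR423 transcript could be measured, and the reason for the 0 counts was not tested.

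None of the neighbouring genes passed edgeR's quasi-likelihood test. WDR6 and NDUFAF3 overlap DALRD3 in the RefSeq annotation and could share reads with it, since no source used here gives the strand setting of the counts. WDR6 had a log2 fold change of 0.057 (adjusted p = 0.673) and NDUFAF3 of 0.19 (adjusted p = 0.196). The genes beside DALRD3 are P4HTM (0.71, adjusted p = 0.134) and IMPDH2 (-0.26, adjusted p = 0.0937). Beside NSRP1, EFCAB5 stood at 0.38 (adjusted p = 0.527) and SLC6A4 was too low to test. Beside ZRANB2, PTGER3 stood at 0.86 (adjusted p = 0.319) and ZRANB2-AS2 at 0.11 (adjusted p = 0.792), and ZRANB2-AS1, which overlaps it, held at most 3 counts in any library. Of these 7 tested neighbours edgeR called 0, where 8.54% of all tested genes were called in either direction. With so few genes, 0 is near that share. DESeq2 called 1 lower, beside 1027 lower of all 18843 tested genes, and limma-voom called 0. An unadjusted p under 0.05 was reached by 1 higher gene, P4HTM, and 1 lower gene, IMPDH2, a count not made over all genes.

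The mean 5p share among the counts of a hairpin was lower with ERI2 siRNA in all 4 hairpins, in a design whose smallest possible p is 0.1. Strand shares were not computed for other hairpins, so how common such a difference is among all hairpins was not measured. For miR-423 the 5p share was 22.02%, 20.9% and 24.0% with ERI2 siRNA and 24.6%, 30.1% and 29.0% with control siRNA. The groups did not overlap, but the exact binomial interval of the first control library (22.5% to 26.9%) covered the third ERI2 siRNA value. The mean share was 22.3 ± 1.61% with ERI2 siRNA and 27.9 ± 2.90% with control siRNA (SD, n = 3), a difference of -5.61 percentage points. For miR-425 the shares were 82.9%, 88.5% and 89.9% with ERI2 siRNA and 93.1%, 90.7% and 91.4% with control siRNA, a difference of -4.63 points. That difference rested in part on the first libraries, since it was -1.84 points without the replicate 1 libraries. The miR-425 3p strand was counted 37, 22 and 21 times with ERI2 siRNA and 19, 20 and 17 times with control siRNA, so each share rests on few counts.

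**Figure D4:**
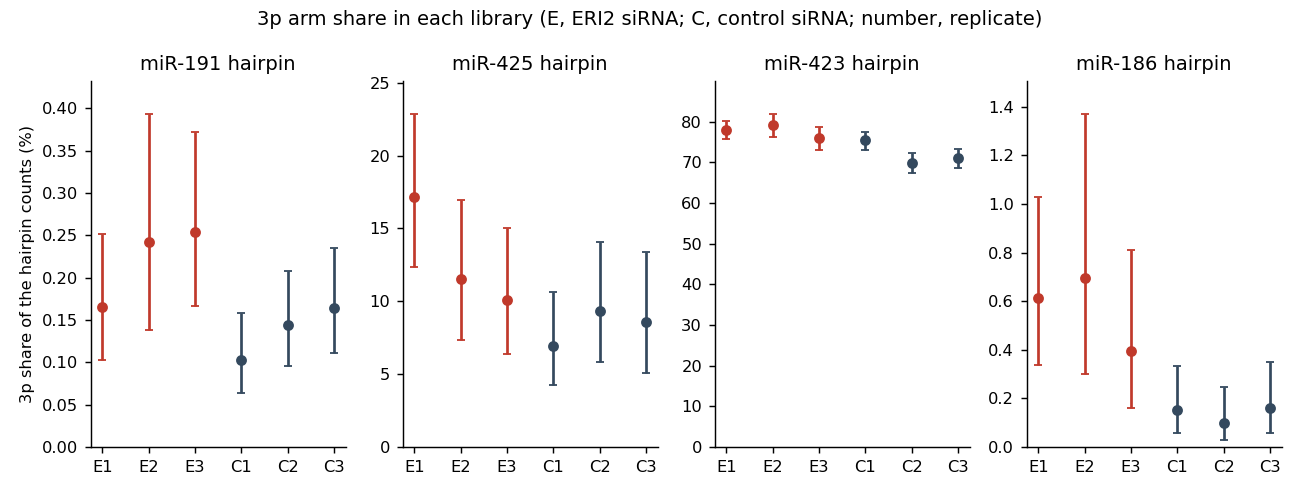
Share of the 3p strand among the counts of each hairpin in each library, as percent, with exact 95% binomial intervals that cover counting error only. Red points E1 to E3 are ERI2 siRNA libraries and dark points C1 to C3 control siRNA libraries, and each axis starts at 0 with its own range. The 3p share is the complement of the 5p share in the text, 78.0% in the first ERI2 siRNA library and 75.4% in the first control library for miR-423.

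In miR-191 and miR-186 the 5p strand made up nearly all counts. miR-191-5p took 99.84%, 99.76% and 99.75% with ERI2 siRNA and 99.90%, 99.86% and 99.84% with control siRNA, so the groups touched at the second decimal. Its 3p strand had 21, 16 and 26 counts with ERI2 siRNA and 21, 28 and 30 with control siRNA. For miR-186 the 5p share was 99.4%, 99.3% and 99.6% with ERI2 siRNA and 99.8%, 99.9% and 99.8% with control siRNA, with at most 14 counts of the 3p strand in a library. In each of the 4 hairpins an exact two-sided permutation test on the shares gave p = 0.1, the smallest this design allows, and 0.1 after adjustment over 5 comparisons.

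The partner strands, which are usually degraded after the duplex opens, followed their hairpins only in part. miR-191-3p had a log2 fold change of -1.78 (edgeR's quasi-likelihood test, adjusted p = 8.55e-05), and miR-425-3p of -0.94 (adjusted p = 0.0150). With total library sizes miR-191-3p stood at -0.56 and did not pass, and the direction of miR-425-3p turned, at 0.27, without passing. miR-186-3p was too low to test, with 14, 8 and 7 counts with ERI2 siRNA and 6, 4 and 6 with control siRNA.

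The counts of miR-3184, on the opposite strand of MIR423, bear on what the miR-423 names hold. miR-3184-3p, the reverse complement of miR-423-5p shown above, was counted 262, 217 and 218 times with ERI2 siRNA and 395, 396 and 369 times with control siRNA. miR-423-5p was counted 296, 180 and 231 times with ERI2 siRNA and 374, 448 and 397 times with control siRNA. The counts of miR-3184-3p per count of miR-423-5p were 0.885, 1.21 and 0.944 with ERI2 siRNA and 1.06, 0.884 and 0.929 with control siRNA, so the opposite strands were counted about equally in both groups. The table held 9 pairs of names with exactly complementary sequences, 4 of them with at least 100 counts for each name. Sums over the 6 libraries were near equal for miR-103a-3p and miR-103b (10656 and 10978) and for miR-374b-5p and miR-374c-3p (144 and 148). They were unequal for miR-550a-3p and miR-550b-2-5p (173 and 103). In a pair with a lower count for 1 name, miR-3529-3p and miR-7-5p, they were 580 and 57. Pairs with fewer counts were also near equal: miR-4433a-3p and miR-4433b-5p (50 and 47) and miR-642a-3p and miR-642b-5p (76 and 71). So were miR-4670-3p and miR-4670-5p (30 and 34) and miR-3913-3p and miR-3913-5p (8 and 8). Near-equal counts were thus common in these pairs, though not found in all of them. Reads of the opposite strands of such a pair cannot be told apart if the counting did not use strand, and no source used here says how reads were given to names. miR-423-5p is therefore uncertain as a single strand's level.

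At the other arm the opposite strands were unequal. miR-3184-5p had 0.273, 0.249 and 0.267 counts per count of miR-423-3p with ERI2 siRNA, and 0.141, 0.145 and 0.147 with control siRNA, so the ratio was higher in each ERI2 siRNA library than in any control library. miR-3184-3p had a log2 fold change of -2.19 (edgeR's quasi-likelihood test, adjusted p = 9.49e-09) and was lower on both scalings. miR-3184-5p stood at -0.95 with TMM (adjusted p = 1.51e-04) and at 0.27 with total library sizes, where it did not pass. When the miR-3184 counts were added to those of the overlapping miR-423 strand, a choice made after the counts were seen, miR-423-5p had a log2 fold change of -2.23 and miR-423-3p of -1.68. The 5p share then was 31.3% with ERI2 siRNA and 39.8% with control siRNA, a difference of -8.44 percentage points.

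Other miRNAs that lie inside host genes gave a similar picture. Of 37 further pairs listed, all inside their host in the RefSeq annotation, 32 had both partners tested. Of these miRNAs 25 were lower, 1 was higher and 6 did not pass, beside 23% lower and 11.1% higher among all tested miRNA names. Among tested names of at least 100 CPM, a level that not all listed miRNAs reached, 38.1% were called lower. The 32 listed miRNAs had a median log2 fold change of -2.23, with a range of -2.69 to 0.78. They were not compared with miRNAs of like level outside host genes. The 29 hosts of these miRNAs had a median of -0.034, beside 0.003 for all tested genes. In edgeR's quasi-likelihood test 1 was called, TMEM164 (-0.25, adjusted p = 0.0470), the host of miR-652-3p (-1.72). Among all tested genes 4.25% were called lower and 4.29% higher in that test. Among the hosts 0 were called higher by edgeR or limma-voom and 1 by DESeq2, while each of these tools called 1 lower. At an unadjusted p under 0.05 in edgeR 2 were higher and 3 lower, a count not made over all genes. MCM7, a replicative helicase subunit, stood at -0.034, while miR-93-5p, miR-25-3p and miR-106b-5p inside it stood at -2.23, -2.28 and -2.60. The exception among miRNAs was miR-326, which was higher (0.78, adjusted p = 0.00520) with its host ARRB1 at -0.27 (adjusted p = 0.102). The list was drawn up from known intronic miRNAs with earlier results of these data in view, and the members lay within its range on both axes. On the host axis NSRP1 (0.34) did so only because of IGF2 (1.09), at 0.79 CPM with ERI2 siRNA and 0.37 CPM with control siRNA. The next highest host, FBXL18, stood at 0.31.

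**Figure D5:**
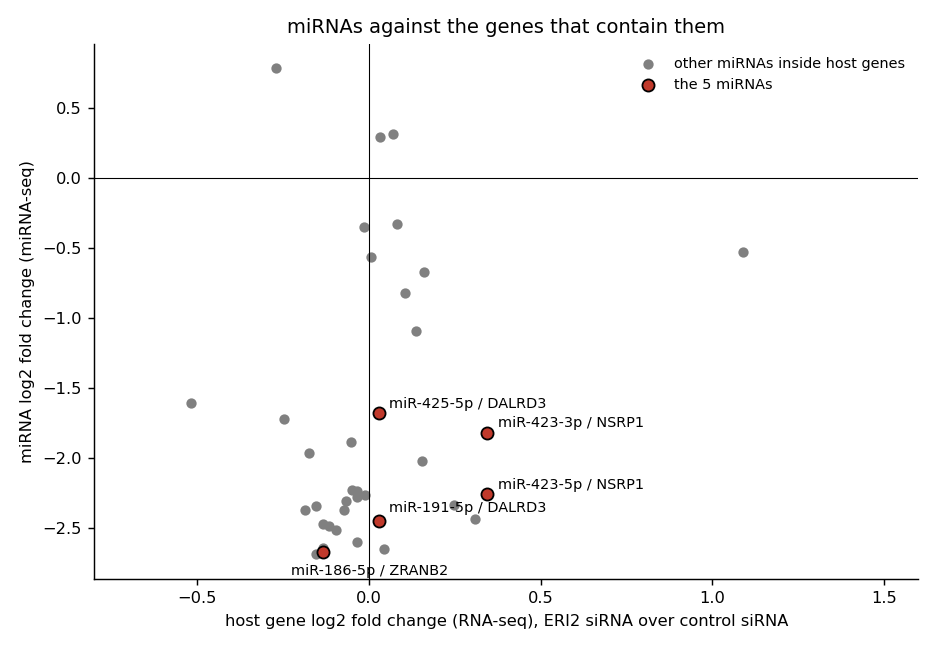
Log2 fold change of each miRNA (miRNA-seq) against that of the gene that contains it (RNA-seq), ERI2 siRNA over control siRNA, with TMM scaling. Red points are the 5 miRNAs and grey points the 32 other pairs with both partners tested. Most miRNAs lie below -1 while the hosts spread around 0.

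Of 38 listed genes that make, load and degrade miRNAs 37 were tested, and 2 were higher and 0 lower in edgeR's quasi-likelihood test. Among all tested genes 4.29% were higher and 4.25% lower, so the share called higher in this test was near that of any gene. The list had a median log2 fold change of 0.012, beside 0.003 for all tested genes. TNRC6A, a silencing partner of the Argonautes, averaged 161 ± 1.54 CPM with ERI2 siRNA and 127 ± 2.18 CPM with control siRNA (SD, n = 3; log2 fold change 0.34, adjusted p = 0.00940). TARBP2, the double-stranded RNA-binding partner of DICER1, averaged 41.2 ± 1.36 CPM with ERI2 siRNA and 34.3 ± 1.74 CPM with control siRNA (0.26, adjusted p = 0.0488). Closest to passing among the others were DGCR8 (0.29, adjusted p = 0.0522) and SRRT (0.22, adjusted p = 0.0645), which hands capped primary transcripts to the microprocessor. DESeq2 called 4 higher and 0 lower, beside 1032 higher and 1027 lower of all 18843 tested genes. For limma-voom the counts were 2 and 0, beside 788 and 752. An unadjusted p under 0.05 was reached by 7 higher and 2 lower genes, a count not made over all genes. With total library sizes 5 were higher and 0 lower, where 5.18% of all tested genes were called higher.

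The reported targets of the 5 miRNAs were read against the 8.54% of all tested genes called in either direction. Of 9 tested targets of miR-191-5p 1 was called, the immediate early transcription factor EGR1, at 3.57 CPM with ERI2 siRNA and 1.87 CPM with control siRNA (0.94, adjusted p = 0.0125). SATB1 (-0.17) and CDK6 (-0.18) had the next smallest p-values and did not pass, and the median of the list was -0.11. CCND1 (0.29) and CYLD (-0.086), reported targets of miR-425-5p, failed the test, also at an unadjusted p of 0.05, in DESeq2 and in limma-voom. Of 3 targets of miR-423, 2 were lower, in the same direction as the miRNA. CDKN1A, a cyclin-dependent kinase inhibitor, averaged 44.5 ± 1.34 CPM with ERI2 siRNA and 71.9 ± 6.20 CPM with control siRNA (-0.69, adjusted p = 9.28e-04). ING4, a reader of histone methylation, averaged 19.1 ± 1.49 CPM with ERI2 siRNA and 26.3 ± 0.74 CPM with control siRNA (-0.46, adjusted p = 0.00902). BCL2L11 stood at 0.096 and did not pass. Among 9 targets of miR-186-5p edgeR, DESeq2 and limma-voom called 0, and 1 was lower at an unadjusted p under 0.05. The smallest p-values belonged to XIAP (-0.22, adjusted p = 0.0733), an inhibitor of caspases, and AKAP12 (-0.13, adjusted p = 0.264), a scaffold of protein kinase A.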

How the data were processed

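miRNA-seq and RNA-seq were measured in 6 libraries each. The authors deposited raw read counts per mature miRNA name and per gene: the values are whole numbers whose totals differ by library. The submitters' processing notes name genome build hg19, TopHat2 2.0.10, CASAVA 1.8.2 and HTSeq 0.6.1p1 without their roles. The miRNA aligner, name release, small RNA kit and strand setting were not found in any source used here. All columns matched a sample. After filterByExpr and TMM scaling, each whole table was tested with edgeR 4.0.16 (robust quasi-likelihood, R 4.3.3), with Benjamini-Hochberg adjustment over all names tested and a threshold of 0.05. SE is the absolute log2 fold change over the square root of F, and 95% intervals use the t distribution with the total degrees of freedom. Strand shares were tested by exact permutation. Alternatives were DESeq2 1.42.0, limma-voom (3.58.1), other scalings and filters, leaving out libraries, leaving out miR-10a-5p, a replicate block and, added after the counts were seen, miR-3184 counts added to miR-423. Scripts were tested on simulated data. Members, lists and alternatives were chosen with earlier results of these data known. Named genes were the members, ERI2, partner strands, miR-3184, neighbours, called list members with up to 2 uncalled ones per list by p, called intronic pairs (summarised) and the 2 nearest patterns. BCL2L11, CYLD, the third members of short lists, and MCM7 with its miRNAs were named after their values were seen. So were IGF2, FBXL18, miR-103a-3p with miR-103b and the other complementary pairs. Some genes the rule names are not reported here. Mature sequences come from RefSeq, whose build differs from hg19.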

Additional observations from a re-analysis of the deposited data

How the results depend on the processing

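All 5 miRNAs kept their direction and their call under every alternative run. Leaving out each library in turn, their log2 fold changes ran from -2.66 to -2.30 (miR-191-5p), -1.74 to -1.59 (miR-425-5p), -2.43 to -2.18 (miR-423-5p), -2.01 to -1.72 (miR-423-3p) and -2.89 to -2.51 (miR-186-5p). For the hosts the ranges were -0.031 to 0.085 (DALRD3, reversed only without control siRNA replicate 2), 0.25 to 0.42 (NSRP1, which passed without ERI2 siRNA replicate 1, adjusted p = 0.0455, or without control siRNA replicate 1, adjusted p = 0.0358) and -0.23 to -0.076 (ZRANB2). NSRP1 also passed in DESeq2 (0.35), with total library sizes (0.40), the upper quartile (0.37, adjusted p = 0.0454), no filter (0.33, adjusted p = 0.0157), the stricter filter (0.35, adjusted p = 0.0490) and replicates 2 and 3 alone (0.41), where ZRANB2 passed at -0.22. The cause was not tested. The 5p share differences ran from -0.111 to -0.0662 (miR-191), -6.04 to -2.52 (miR-425, lowest in size without ERI2 siRNA replicate 1, -1.84 with replicates 2 and 3 alone), -7.26 to -4.51 (miR-423, -8.44 with miR-3184 added) and -0.519 to -0.368 points (miR-186), and the log2 ratio difference from -1.01 to -0.58. Names called higher numbered 146 in the fit reported, 1031 with total library sizes, 580 with the upper quartile, 223 with no filter and 74 to 146 leaving out a library (84 without control siRNA replicate 1, 74 without control siRNA replicate 3). Names called lower numbered 303, 179 with total library sizes and 278 to 328. Genes called higher numbered 809, 1290 with no filter, 2622 with replicates 2 and 3 alone and 176 to 1424 leaving out a library. Genes called lower numbered 800, 463 with total library sizes, 2670 with replicates 2 and 3 alone and 195 to 1327. These gene counts moved by over 1.5 times without any 1 library, except that genes called lower did not without control siRNA replicate 1; both were highest without ERI2 siRNA replicate 1 and lowest without ERI2 siRNA replicate 3.

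Same-numbered libraries did not deviate together: the correlations of their deviations were -0.38, -0.09 and -0.02 in miRNA-seq and -0.62, -0.29 and -0.07 in RNA-seq. Some differently numbered RNA-seq libraries did, such as ERI2 siRNA 1 with control siRNA 2 (0.60) and ERI2 siRNA 3 with control siRNA 1 (0.54). Others went the opposite way, such as ERI2 siRNA 3 with control siRNA 2 (-0.55). The replicate block does not model this, and its cause was not tested. With the replicate block 105 genes were higher and 98 lower, against 108 and 292 miRNA names. The block gave -2.48 for miR-191-5p and 0.34 for NSRP1 (adjusted p = 0.161) and changed no member's call. Depth limits the 3p strands of miR-191, miR-425 and miR-186 and the hairpin genes MIR191, MIR425 and MIR186, which held few counts. The binomial intervals of the strand shares cover counting error only.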
